A study of Mus musculus with 144 samples.

Results

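Expression of 10 genes of the nuclear factor kappa B (NF-kB) pathway was examined in single retinal microglia. They are the genes for the 5 subunits of the factor (Nfkb1, Nfkb2, Rel, Rela and Relb), 4 genes for inhibitors and feedback regulators (Nfkbia, Nfkbie, Nfkbiz and Tnfaip3), and Icam1, an adhesion molecule that is a common target. They were taken by gene symbol from a table of 55364 genes, and each of the 10 symbols was found in it.

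NF-kB is a family of paired DNA-binding proteins that inhibitor of kappa B (IkB) proteins hold in the cytoplasm. Receptors for cytokines and microbial products activate the IkB kinase complex, the IkB proteins are degraded, and the freed pairs enter the nucleus and switch on genes of inflammation and survival. Among the genes switched on are those of the pathway's own inhibitors, so that transcripts such as Nfkbia and Tnfaip3 are widely used as a reading of recent pathway activity. In microglia, the resident immune cells of the retina, the pathway is known as a route to cytokine production.

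The cells came from Iba1-EGFP mice, whose microglia and other Iba1-positive cells carry green fluorescent protein under the Iba1 promoter, and were sorted singly. One group was given PBS (mice 10 to 14 weeks old), one the low dose of ripasudil, 1 mg/kg (14 weeks), and one the high dose, 10 mg/kg (12 weeks). Ripasudil is an inhibitor of the ROCK kinases. Route, length of treatment and state of the optic nerve are not given in the labels, although the series title refers to optic nerve injury. Of the 48 cells in a group, 16 were sorted to each of 3 plates, in a block of wells of its own, so dose, age and well position cannot be told apart. No animal is named, so each group counts as 1 sample, no test was made, and no difference below has a replicate check. SDs are over cells and intervals are exact Clopper-Pearson 95% intervals, which cover counting error only. Beside a count of 0 cells, the share that 3 cells would make is given as the limit that this count allows, in place of an interval.

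Kept were 46 PBS, 47 low-dose and 47 high-dose cells, those in which 1000 or more genes reached an FPKM of 1. FPKM scales the fragments of a gene to its length and to the cell's assigned fragments, so levels can be set side by side between genes. Assigned reads ranged from 30204 to 4668732 per cell with a median of 1614850, and detected genes had a median of 3143 in the PBS, 2418 in the low-dose and 2264 in the high-dose cells kept. The microglial markers Csf1r and C1qa were detected in 100% of the 140 kept cells, Tmem119 in 88.6% and P2ry12 in 77.9%.

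A single cell on each plate stood apart by its neutrophil transcripts. These 3 cells held 37099 (PBS), 54673 (low dose) and 54950 (high dose) FPKM of the neutrophil gene S100a8, where the median of the other 137 kept cells was 0. Their Csf1r was 88.6, 273 and 102 FPKM against a median of 811, and their C1qa 14.3, 530 and 26.7 FPKM against 2497. Tmem119 was at 0.537, 221 and 3.99 FPKM against a median of 103, so the low-dose cell held more of this microglial marker than the median. The 7 other cells in the same numbered column of wells all held S100a8 as well, 21 of 21 over the 3 plates, while 21 of the 120 cells in other columns did. The S100a8 of those 21 cells was a median of 0.0128% and at most 0.310% of that in the cell that stood apart. The Nfkbia that the other cells of the column held was summed for each cell under 10 FPKM. The same share of the median sum would be 0.344 FPKM at the median share and 8.36 FPKM at the highest. The median measured in these 69 cells was 1.99 FPKM. The part of such carry-over in the low values was not tested, and detection is therefore given at 10 FPKM as well as at 1 FPKM. For the other 9 genes the highest share of the median sum was at most 0.869 FPKM. It is no upper limit, since columns with a very high cell would give more. An example is the column of the high-dose cell with 1121 FPKM of Icam1.

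The 10 genes fell into a small set that many cells expressed and a larger set found in few. Nfkbia stood highest, with a mean of 5.18 ± 1.09 on the log2(FPKM + 1) scale (SD over the 9 means of a group on a plate). Nfkbiz followed at 2.75 ± 1.02 and Icam1 at 2.48 ± 0.93. Rela was at 1.51 ± 0.54 and Tnfaip3 at 1.09 ± 0.73, and Relb, Nfkb2, Rel, Nfkb1 and Nfkbie lay between 0.78 and 0.39. Of the 9 steps in this order, the gap from Nfkbia to Nfkbiz (2.43) and that from Icam1 to Rela (0.97) were larger than the SD of either neighbour. The other neighbours did not differ by more than their spread. An FPKM of 1 corresponds at the median depth to 2.60 reads for Nfkbia and to 19.5 reads for Nfkb1, the shortest and longest of these genes.

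**Figure D1:**
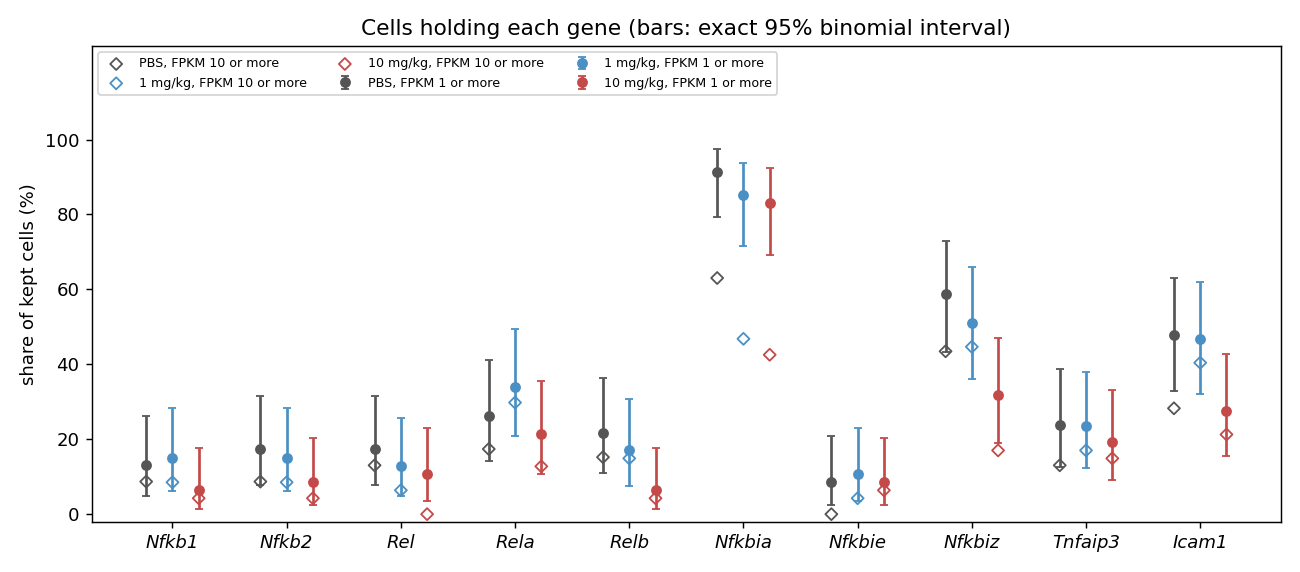
Share of kept cells (vertical axis, %) holding each of the 10 genes in PBS (grey), 1 mg/kg (blue) and 10 mg/kg (red) cells, at 1 FPKM or more (filled circles with exact 95% binomial intervals) and at 10 FPKM or more (open diamonds). Nfkbia stood above the others in each group, and Nfkbiz at 10 FPKM or more was at 43.5%, 44.7% and 17.02% of PBS, low-dose and high-dose cells.

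The inhibitor genes are classic targets of the factor that their proteins restrain, so the bases upstream of their starts are shown. Of the 10 genes, 7 were in the RefSeq promoter table (GRCm38.p6), Nfkbia, Nfkbie, Tnfaip3, Nfkb2, Rel, Rela and Icam1. They had 10 promoters between them. The 250 bases before the start and the 50 after it were searched on both strands, with overlapping matches allowed. The motif was a kappa B consensus of 10 letters, GGGRNNYYCC, where R is A or G, Y is C or T and N is any base. At least 1 promoter of 5 of the 7 genes held a match, and so did that of 9.55% of the 27025 genes in the table. Of its 32851 promoters, 8.46% held one. Printed below, in the gene's direction, are the 250 upstream bases of 5 promoters with matches, which are in capitals, and of Icam1. On GRCm38.p6 they are chr12:55492648-55492897 (Nfkbia, minus strand), chr17:45555450-45555699 (Nfkbie, plus), chr10:19015411-19015660 (Tnfaip3, minus), chr19:46304487-46304736 (Nfkb2, plus), chr11:23770970-23771219 (Rel, minus) and chr9:21015690-21015939 (Icam1, plus).
Nfkbia: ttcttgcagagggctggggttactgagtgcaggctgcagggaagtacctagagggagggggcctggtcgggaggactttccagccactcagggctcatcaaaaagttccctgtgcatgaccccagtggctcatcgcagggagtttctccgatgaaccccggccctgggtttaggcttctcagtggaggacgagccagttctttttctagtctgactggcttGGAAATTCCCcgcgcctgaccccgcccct
Nfkbie: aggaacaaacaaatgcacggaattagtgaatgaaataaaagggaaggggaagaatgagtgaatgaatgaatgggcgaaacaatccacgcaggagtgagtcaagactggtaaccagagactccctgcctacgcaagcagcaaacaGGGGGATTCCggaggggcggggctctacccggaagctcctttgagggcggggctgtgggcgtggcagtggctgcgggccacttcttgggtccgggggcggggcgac
Tnfaip3: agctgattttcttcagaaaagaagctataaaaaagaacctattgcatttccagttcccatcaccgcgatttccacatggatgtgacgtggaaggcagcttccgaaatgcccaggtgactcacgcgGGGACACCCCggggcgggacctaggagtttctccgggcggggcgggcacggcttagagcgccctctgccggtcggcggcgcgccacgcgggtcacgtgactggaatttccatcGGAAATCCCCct
Nfkb2: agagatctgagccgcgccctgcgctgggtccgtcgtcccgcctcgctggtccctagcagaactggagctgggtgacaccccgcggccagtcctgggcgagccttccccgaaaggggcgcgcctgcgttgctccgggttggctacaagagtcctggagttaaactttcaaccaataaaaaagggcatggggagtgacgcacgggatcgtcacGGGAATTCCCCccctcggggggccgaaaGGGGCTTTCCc
Rel: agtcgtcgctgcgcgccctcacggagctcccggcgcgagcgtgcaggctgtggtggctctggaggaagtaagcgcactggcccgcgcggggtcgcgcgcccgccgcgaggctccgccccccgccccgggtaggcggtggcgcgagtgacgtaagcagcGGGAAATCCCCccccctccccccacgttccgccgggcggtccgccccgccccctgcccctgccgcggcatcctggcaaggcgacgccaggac
Icam1: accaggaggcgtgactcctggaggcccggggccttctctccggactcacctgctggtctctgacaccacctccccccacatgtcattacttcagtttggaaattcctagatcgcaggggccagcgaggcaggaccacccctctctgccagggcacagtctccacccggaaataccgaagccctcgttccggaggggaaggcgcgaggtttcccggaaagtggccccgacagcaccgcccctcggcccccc
The Nfkbia match began at position -29 from the start. Tnfaip3 held matches at -125 and -12, the printed Nfkb2 promoter 3 matches beginning at -39, -38 and -11, and Rel a pair of overlapping matches at -92 and -91. Nfkbie had 1 match at -106. Icam1, which was measured far more often than Rel or Nfkb2, had no exact match in its window, nor had Rela. The printed Icam1 bases hold tggaaattcc, which departs from the consensus in its first letter alone. Sites that depart from the consensus were not searched for, so the lack of a match does not mean the lack of a kappa B site. A match describes the letters, not binding, and no binding data were used.

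Rela (ENSMUSG00000024927, plus strand of chromosome 19, 5637483 to 5648130) encodes the main activating subunit and was the subunit gene found in the largest number of cells. Its lowest, median and highest values were 0, 0 and 389 FPKM in PBS cells, 0, 0.194 and 504 FPKM at the low dose, and 0, 0 and 337 FPKM at the high dose. It was at 1 FPKM or more in 12 of 46, 16 of 47 and 10 of 47 cells, and at 10 FPKM or more in 8, 14 and 6 cells. More low-dose cells than PBS cells were thus high, but most cells of every group were near 0 and the groups overlapped. The share at 10 FPKM or more was 17.4% (7.82 to 31.4) with PBS, 29.8% (17.3 to 44.9) in low-dose cells and 12.8% (4.83 to 25.7) in high-dose cells, with overlapping intervals. On the log2 scale Rela was 0.93 higher at the low dose than with PBS, and 1.07, 1.07 and 0.66 higher on plates 1, 2 and 3. The high dose was close to PBS (difference -0.11, and -0.48, 0.09 and 0.05 by plate) and 1.04 below the low dose (-1.55, -0.98 and -0.61). In low-dose cells the 3 highest cells held 58.8% of all Rela FPKM.

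Relb encodes the activating partner in the non-canonical branch of the pathway. It was detected in 10 of 46 PBS, 8 of 47 low-dose and 3 of 47 high-dose cells, and its highest values were 288, 232 and 71.4 FPKM. The plates disagreed on where these cells were. With PBS, 0 of 16 cells on plate 1 and 6 of 16 on plate 2 were at 1 FPKM or more, and at the low dose 1 of 16 on plate 2 and 5 of 16 on plate 3. The differences from PBS took both signs over the plates at either dose, 0.61, -1.94 and 0.84 (low dose) and 0.30, -1.66 and -0.83 (high dose).

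Rel encodes c-Rel, a subunit prominent in blood and immune cells. It was detected in 8, 6 and 5 PBS, low-dose and high-dose cells. It reached 10 FPKM in 6 PBS cells, 3 low-dose cells and 0 of 47 high-dose cells, which allows a share of up to 6.38%. Its highest values in the groups were 114, 37.4 and 8.44 FPKM. The difference was -0.37 at the low dose (-0.45, -0.49 and -0.17 by plate). At the high dose it was -0.50 (-0.59, -0.56 and -0.35), and at both doses Rel was lower on each plate. The medians over the genes compared below were -0.18 and -0.43. Rel is not among those genes, and differences of rarely detected genes are understated on this scale.

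Nfkb1 and Nfkb2 encode precursor proteins that also act as inhibitors until they are processed to DNA-binding subunits. Nfkb1 was detected in 6, 7 and 3 cells of the groups, and 12 of these 16 cells were on plate 2. Its highest value was 45.8 FPKM, in a PBS cell. Nfkb2 was detected in 8, 7 and 4 cells. A single PBS cell held 820 FPKM of Nfkb2, and the 3 highest PBS cells held 95.5% of the group's total, so a mean FPKM of Nfkb2 describes few cells. Nfkb2 shares 531 exon bases with AC114539.1 and 299 with Psd, both on the opposite strand, and the use of strand in counting is not given in the sources used here. The high-dose differences of the pair were -0.37 and -0.42, against a median of -0.43 over the 4806 genes compared below. Neither gene is among those genes, and differences of rarely detected genes are understated on this scale.

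**Figure D2:**
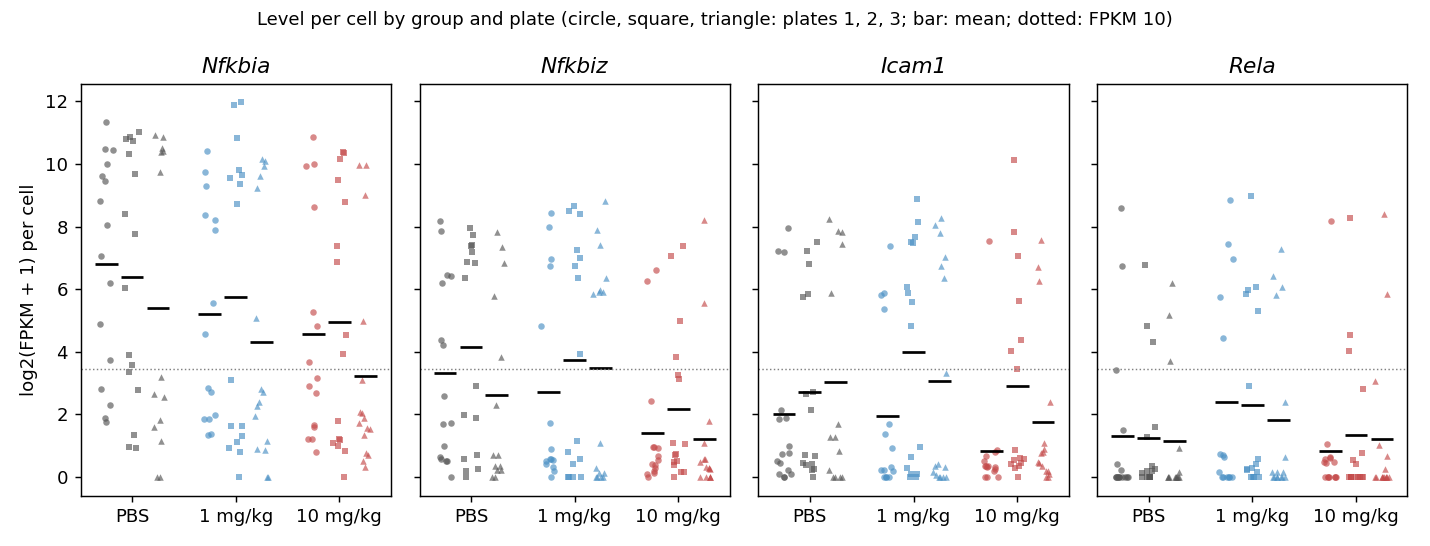
Level in each kept cell, log2(FPKM + 1), of Nfkbia, Nfkbiz, Icam1 and Rela (panels) by group (horizontal axis) and plate (circles, squares and triangles for plates 1, 2 and 3), with the plate means as bars and 10 FPKM as a dotted line. Cells form an upper and a lower cloud in each panel, and for Nfkbia the 3 high-dose plate means are below the PBS means of the same plates.

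Nfkbia (ENSMUSG00000021025, minus strand of chromosome 12, 55489410 to 55492647 on GRCm38) encodes IkB alpha, the inhibitor that is rapidly remade after activation. Its lowest, median and highest values were 0, 102 and 2581 FPKM in PBS cells, 0, 6.09 and 4002 FPKM at the low dose, and 0, 5.35 and 1878 FPKM at the high dose. At 100 FPKM or more were 23 of 46 PBS, 19 of 47 low-dose and 14 of 47 high-dose cells. The lower cloud of cells, below 10 FPKM, held 17, 25 and 27 cells, and the highest cells of all 3 groups overlapped. The share at 10 FPKM or more was 63.0% (47.5 to 76.8) with PBS, 46.8% (32.1 to 61.9) at the low dose and 42.6% (28.3 to 57.8) at the high dose, with overlapping intervals. At 1 FPKM or more the shares were closer, 91.3%, 85.1% and 83.0%.

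Mean Nfkbia was 6.24 ± 3.96 with PBS, 5.09 ± 4.06 in low-dose cells and 4.23 ± 3.67 in high-dose cells (log2 scale, SD over cells). The low dose was 1.15 below PBS on this scale (difference -1.15), with -1.60, -0.64 and -1.09 on plates 1, 2 and 3. The difference at the high dose was -2.01, with -2.24, -1.47 and -2.19 by plate. The number of detected genes moved with these differences. Adjusted for it, the values were -0.27 and -0.58, and among cells with at least 2000 detected genes the low-dose difference turned to 0.40 while that of the high dose was -1.39. The part of detected genes in the differences was not tested.

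Nfkbiz (ENSMUSG00000035356, minus strand of chromosome 16, 55811375 to 55838899) encodes IkB zeta, a nuclear regulator that is itself induced by the pathway and is needed for a set of secondary target genes. Its lowest, median and highest values were 0, 3.46 and 290 FPKM in PBS cells, 0, 1.10 and 452 FPKM at the low dose, and 0, 0.464 and 297 FPKM at the high dose. At 10 FPKM or more were 20 of 46 PBS, 21 of 47 low-dose and 8 of 47 high-dose cells, that is 43.5% (28.9 to 58.9), 44.7% (30.2 to 59.9) and 17.02% (7.65 to 30.8). By plate these cells numbered 7, 8 and 5 with PBS, 5, 8 and 8 in low-dose cells and 2, 4 and 2 in high-dose cells. High-dose cells with Nfkbiz were thus fewer on every plate, while a few reached the level of the other groups.

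Pooled over plates, Nfkbiz at the low dose stood close to PBS. Mean Nfkbiz on the log2 scale was 3.38 ± 3.08 with PBS, 3.32 ± 3.42 in low-dose cells and 1.5996 ± 2.31 in high-dose cells. The high dose was 1.78 below PBS (difference -1.78, and -1.92, -1.95 and -1.39 by plate) and 1.72 below the low dose (-1.72, and -1.33, -1.55 and -2.27). The difference of the low dose from PBS was -0.06, with -0.59, -0.40 and 0.88 by plate. Adjusted for detected genes, the high-dose difference from PBS was -0.52 and that from the low dose -1.23. With every cell thinned to 300000 reads, Nfkbiz had a read in 31 of 41 PBS, 29 of 46 low-dose and 21 of 44 high-dose cells (75.6%, 63.0% and 47.7%), against 91.3%, 80.9% and 85.1% of the kept cells without thinning. Thinning left out 5, 1 and 3 kept cells.

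Tnfaip3 encodes A20, a ubiquitin-editing enzyme that shuts signalling off upstream of the IkB kinases. It was detected in 11, 11 and 9 cells of the groups, with highest values of 71.1, 84.5 and 319 FPKM. All 4 cells at 100 FPKM or more were high-dose cells. The plates differed widely, with 0 of 15 low-dose cells on plate 1 and 0 of 16 high-dose cells on plate 3 at 1 FPKM or more, which allow shares of up to 20% and 18.8%. The means were 1.02 ± 1.76, 1.13 ± 2.05 and 1.14 ± 2.37, and neither difference from PBS (0.11 and 0.12) had 1 sign on all plates. With every cell thinned to 300000 reads, Tnfaip3 had a read in 43.9% of PBS, 36.96% of low-dose and 25% of high-dose cells, against 56.5%, 59.6% and 46.8% of the kept cells without thinning.

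Nfkbie encodes IkB epsilon, a further cytoplasmic inhibitor. It was detected in 4, 5 and 4 cells, with highest values of 7.54, 62.7 and 31.03 FPKM. It reached 10 FPKM in 0 of 46 PBS cells, which allows a share of up to 6.52%, and in 2 low-dose and 3 high-dose cells. The differences from PBS were 0.23 and 0.19.

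Icam1 (ENSMUSG00000037405, plus strand of chromosome 9, 21015985 to 21028817) encodes an adhesion molecule through which leukocytes bind, here as a target gene read beside the regulators. Its lowest, median and highest values were 0, 0.875 and 304 FPKM with PBS, 0, 0.883 and 465 FPKM at the low dose and 0, 0.417 and 1121 FPKM at the high dose. It was at 10 FPKM or more in 13 of 46, 19 of 47 and 10 of 47 cells (28.3%, 40.4% and 21.3%), with overlapping intervals of 15.99 to 43.5, 26.4 to 55.7 and 10.7 to 35.7. The highest single value was in a high-dose cell, and the 3 highest cells of that group held 71.6% of its Icam1. The high dose was 1.17 below the low dose (difference -1.17, and -1.12, -1.10 and -1.29 by plate). Against PBS the plates did not share a sign at either dose, with -0.05, 1.27 and 0.02 (low dose) and -1.17, 0.18 and -1.28 (high dose). Icam1 shares 511 exon bases with the antisense gene Gm47079.

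Set against all genes, the members' differences read as follows. The comparison of all genes took the 4806 genes that reached 1 FPKM in 25% or more of a group's kept cells. Nfkbia, Nfkbiz, Icam1 and Rela were among them, and the other 6 members were not. A gene near that limit enters through the group in which it is found most. A gene was counted where its difference was 1 or more in size on the log2 scale with 1 sign on all 3 plates. The median difference of all genes from PBS was -0.18 (low dose) and -0.43 (high dose), and it was -0.24 between the high and the low dose, so that dosed cells read lower for most genes.

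At the low dose 1 of these 4 members (Nfkbia) was lower by that rule, where 4.93% of all genes were, and none was higher, where 0.52% were. At the high dose Nfkbia and Nfkbiz were lower, where 13.4% of all genes were, and none was higher (0.0624% of all genes). Between the doses Nfkbiz, Icam1 and Rela were lower at the high dose, where 5.66% of all genes were, and none was higher (0.479%). Of the 4806 genes, 0.458% had a lower value than Nfkbia and 1.12% a lower value than Nfkbiz at the high dose against PBS. For Rela at the low dose, 99.1% of all genes had a lower value than its 0.93.

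Over the 10 members the median difference from PBS was -0.05 (low dose) and -0.46 (high dose), with 6 and 8 members below 0, where 64.7% and 81.4% of all genes were, so the members' counts stood near the share of all genes. These comparisons share the PBS cells. For the high against the low dose the median was -0.45, with 9 members below 0, where 72.0% of all genes were below 0 and their median was -0.24. Only 4 of the 10 members are among the genes compared, and differences of rarely detected genes are understated on this scale. The members and all genes are thus unlike sets here.

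**Figure D3:**
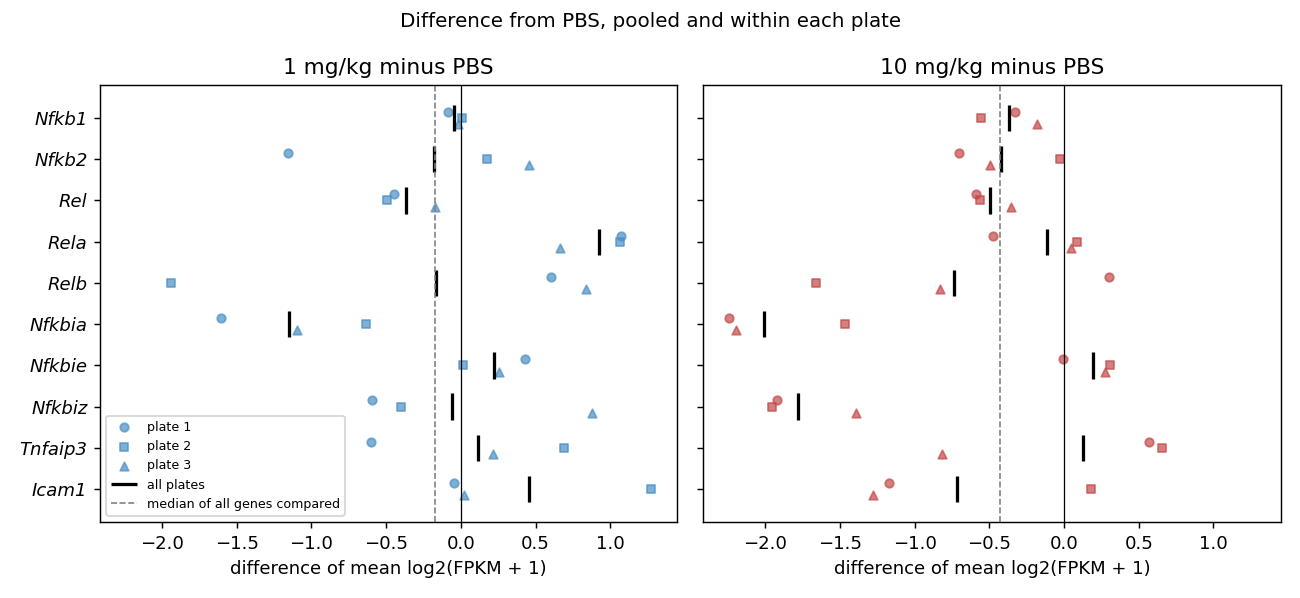
Difference of mean log2(FPKM + 1) from PBS (horizontal axis) for each of the 10 genes at 1 mg/kg (left) and 10 mg/kg (right), within plates 1, 2 and 3 (circles, squares, triangles) and pooled (black bars), with the median of the 4806 genes compared as a dashed line. Nfkbia is below 0 on all plates in both panels, Nfkbiz on all plates at 10 mg/kg, and Rela above 0 on all plates at 1 mg/kg.

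Cells held several members at once. At 1 FPKM or more a PBS cell held 3.26 ± 2.04 of the 10 genes (mean and SD over cells), a low-dose cell 3.11 ± 2.39 and a high-dose cell 2.23 ± 2.00, with a maximum of 9. At least 4 members were found in 20 PBS, 18 low-dose and 9 high-dose cells. Nfkbia was the sole member in 9, 12 and 16 cells. At 10 FPKM or more, 3 or more members were found in 17, 19 and 8 cells, and none in 12, 18 and 19. Cells with more detected genes held more members, with a Spearman rho of 0.77 over the 140 cells.

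Nfkbia and Nfkbiz marked largely the same cells. At 10 FPKM or more, 46 of the 71 cells with Nfkbia also held Nfkbiz (64.8%), and 3 of the 69 cells without Nfkbia did (4.35%). The groups differed in the remainder. Nfkbiz was found in 19 of 29 PBS cells with Nfkbia (65.5%), in 19 of 22 low-dose cells (86.4%) and in 8 of 20 high-dose cells (40%). Cells with Nfkbia and without Nfkbiz thus numbered 10, 3 and 12. Whether these proportions differ between groups was not tested.

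**Figure D4:**
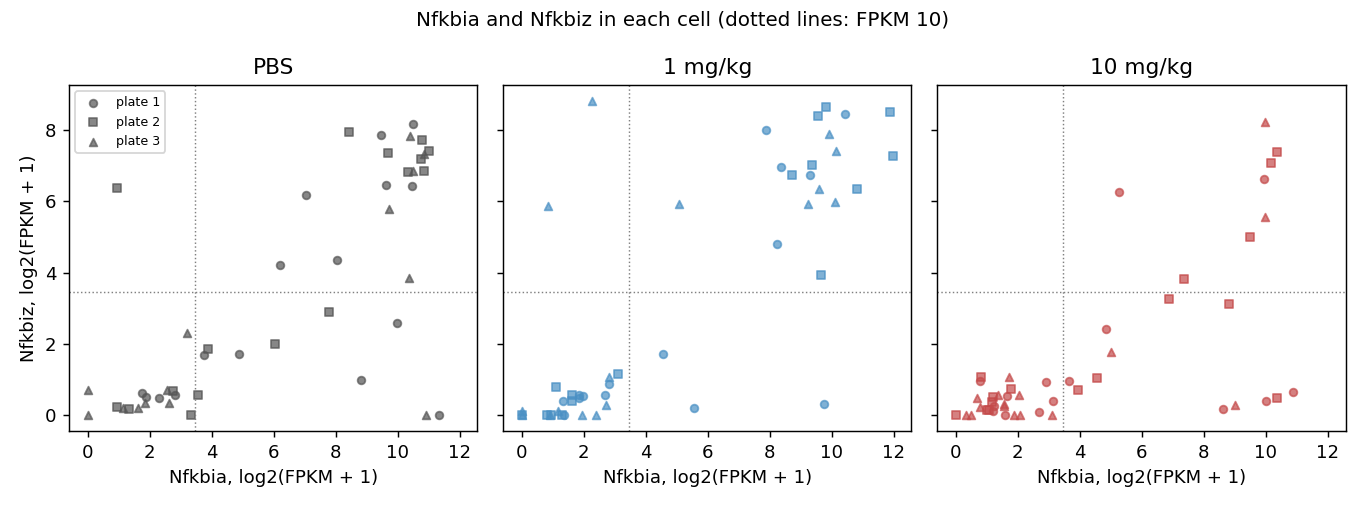
Nfkbia (horizontal axis) against Nfkbiz (vertical axis), both log2(FPKM + 1), in each kept PBS, 1 mg/kg and 10 mg/kg cell, with 10 FPKM as dotted lines and plates as symbols. Both genes are above the lines in 19, 19 and 8 cells, and Nfkbia alone in 10, 3 and 12.

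Icam1 was found mostly in cells that also held Nfkbiz. It reached 10 FPKM in 35 of the 49 cells with Nfkbiz (71.4%) and in 7 of the 91 without (7.69%). All 31 cells with Tnfaip3 at 1 FPKM or more held Nfkbia at that level, which 86.4% of all kept cells did, and 0 of the 19 cells without Nfkbia held Tnfaip3, which allows a share of up to 15.8%. With both read at 10 FPKM, 18 of the 21 cells with Tnfaip3 held Nfkbia and 3 did not. Of the subunits, Relb was found with Nfkbiz in 20 of its 21 cells and with Icam1 in 19, Nfkb1 with Nfkbiz in 15 of 16, and Rel with Nfkbiz in 17 of 19. Nfkbiz was in 47.1% and Icam1 in 40.7% of all kept cells, and these subunit counts and shares are at 1 FPKM or more. Cells with more detected genes held more members (Spearman rho 0.77), and the part of this in the joint counts was not tested.

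Correlations over the 140 cells are given as a description. They use the log2 level less the mean of the cell's group and plate, and cells share library depth and the number of detected genes. Spearman rho was 0.73 for Nfkbia and Nfkbiz, 0.68 for Nfkbiz and Icam1 and 0.56 for Nfkbia and Icam1. Adjusted for detected genes these were 0.60, 0.48 and 0.43, and with values under 10 FPKM set to 0 they were 0.68, 0.63 and 0.54. Within high-dose cells alone Nfkbia and Icam1 had a rho of 0.28. Among the subunits the highest was 0.46 for Nfkb1 and Rel, 0.35 after adjustment. Nfkbie had a rho between -0.19 and 0.22 with each other member over all cells, and up to 0.46 (with Nfkb1) within high-dose cells. After the subtraction, cells at 0 were ranked by the mean of their group and plate, so these means stay in rho where many values are 0. Values of genes that few cells hold are mostly 0, and their correlations, low or high, are no finding. Within low-dose cells Nfkb1 and Rel had a rho of 0.13.

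**Figure D5:**
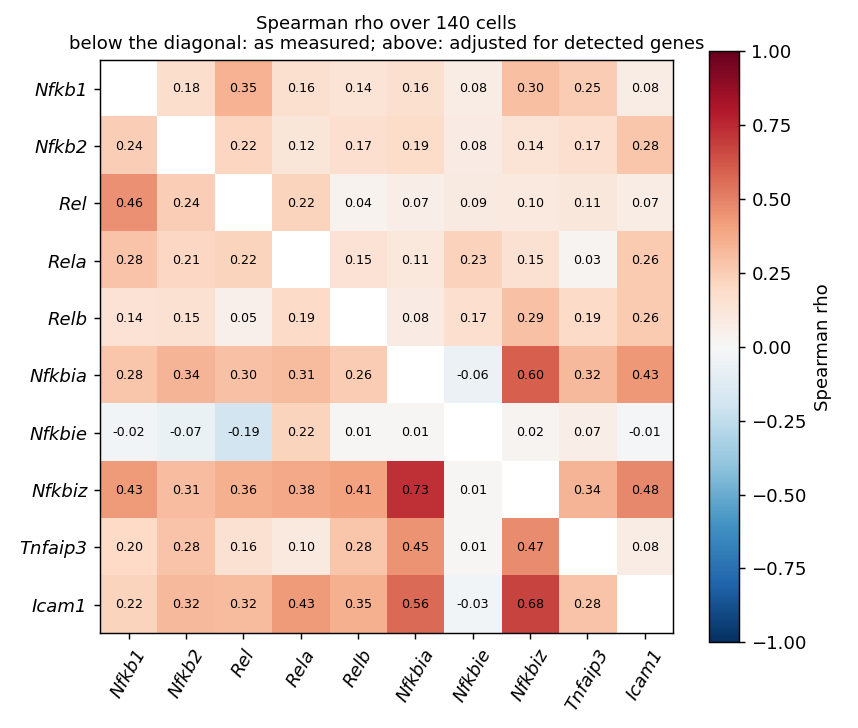
Spearman rho over 140 kept cells for each pair of the 10 genes, as measured (below the diagonal) and adjusted for the number of detected genes (above it), on a colour scale from -1 to 1. Nfkbia, Nfkbiz and Icam1 give the highest values below the diagonal (0.73, 0.68 and 0.56).

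The genes most like each member were drawn from the 2223 genes that reached 1 FPKM in 25% or more of the kept cells. For Nfkbia they were Ier5 (rho 0.76), Ppp1r15a (0.75) and Atf3 (0.75), and for Nfkbiz they were Btg2 (0.86), Ier2 (0.85) and Jun (0.84). Ier2, Ier5, Btg2 and Jun are immediate early genes, Atf3 is a stress-induced transcription factor and Ppp1r15a a stress-induced phosphatase subunit. For Icam1 they were Nfkbiz (0.68), Ppp1r15a (0.67) and Ier2 (0.65). For Rela they were Csf3r (0.50), Cd84 (0.49) and Mlxipl (0.46), at lower values. The median rho over all ranked genes was 0.26 for Nfkbia, 0.32 for Nfkbiz, 0.28 for Icam1 and 0.19 for Rela. After adjustment for detected genes Ier5 and Btg2 still ranked first for Nfkbia and Nfkbiz, at 0.67 and 0.79.

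Immediate early genes were lower in the same comparison. Of 19 measured genes of that list, 19 were below PBS at the high dose, where 81.4% of all genes were, with a median of -1.27 (-1.76, -0.58 and -1.32 by plate). Of the 14 among the genes compared, 9 were lower by the rule, where 13.4% of all genes were. Btg2, an antiproliferative gene, was at -2.07, and Junb, an AP-1 subunit, was at -2.23, -1.68 and -1.84 on the plates. At the low dose 13 of 19 were below PBS, where 64.7% of all genes were. Their median was -0.29, and -1.08, -0.12 and 0.50 by plate, so the plates did not share a sign. None of the 14 was lower by the rule, where 4.93% of all genes were, and Nfkbia was at -1.15. Adjusted for the mean of these genes in each cell, the high-dose differences of Nfkbia and Nfkbiz were -0.55 and -0.54. Their part in the members' differences was not tested.

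The other components of the pathway were counted by role. The rule applies only to genes found in 25% or more of a group's cells, which 6 of 14 measured receptors and adaptors were. None of the 6 passed it at either dose against PBS, where 4.93% (low dose) and 13.4% (high dose) of all genes were lower. At the high dose 13 of the 14 were below PBS, with a median difference of -0.61. Of all genes compared, 81.4% were below PBS there, with a median of -0.43. Tnfrsf1a, a receptor for TNF, was at -0.70 and -0.99 (low and high dose), and Cd14, the co-receptor for lipopolysaccharide, at -0.95 at the high dose. Irak1, a kinase downstream of Toll-like receptors, was at -1.41 between the high and the low dose, the 1 gene of this list past the rule there, where 5.66% of all genes were. It was found in 21.7% of PBS, 31.9% of low-dose and 6.38% of high-dose cells. Irak1 thus entered the comparison only through the low dose, and its call favours a lower value at the high dose.

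Of 10 measured kinases and partners 4 were found often enough for the rule, and none of the 4 passed it in any comparison. Of all genes, 4.93% (low dose), 13.4% (high dose) and 5.66% (between doses) were lower by it. Ikbkb, the catalytic kinase that marks IkB alpha for degradation, was at 0.50 and 0.35 at the low and high dose, above 0 on every plate. Tbk1 and Tank, a kinase and its adaptor, were at -0.62 and -0.69 (low dose) and at -0.76 and -0.75 (high dose). Of 14 other measured inhibitors 8 were found often enough. Of these 8, 2 were lower by the rule at the high dose, where 13.4% of all genes were. They were Nfkbid, which encodes a further nuclear IkB protein, at -1.21, and Tnfaip8l2 at -1.40. Between the doses Tnfaip8l2 alone was lower at the high dose, at -1.52, where 5.66% of all genes were. Nfkbid was found in 34.8% of PBS, 21.3% of low-dose and 12.8% of high-dose cells. It thus entered the comparison only through PBS, and its call favours a lower value at the high dose. At the low dose none of the 8 passed the rule, where 4.93% of all genes were lower.

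Of 19 measured target genes 16 were found often enough, and 7 of them were lower by the rule at the high dose, where 13.4% of all genes were (Tnf, Il1a, Ccl2, Bcl2a1b, Ier3, Marcksl1 and Junb) and 1, Ccl2, at the low dose, where 4.93% were. None was higher. Ccl2, a chemokine for monocytes, was at -2.44 and -1.71 at the low and high dose, and Ccl5 at 0.71 at the high dose. By plate Ccl5 was at 1.89, 0.02 and 0.38. It was found in 19.6% of PBS, 14.9% of low-dose and 27.7% of high-dose cells, and entered only through the high dose. The list's median was -0.44 and -0.71. Junb stood in both this list and that of the immediate early genes.

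The cytokines and the receptor named in the series title were set beside the members. Spearman rho with Tnf was 0.72 for both Nfkbia and Nfkbiz and 0.60 for Icam1, and with Il1a 0.65, 0.71 and 0.62. With Gpr84 the values were 0.39, 0.50 and 0.51, and with Il1b 0.04, 0.05 and 0.13. Adjusted for detected genes, rho was 0.57, 0.52 and 0.49 with Tnf and 0.56, 0.54 and 0.47 with Il1a. With Gpr84 it fell to 0.13, 0.21 and 0.32, where the median over all ranked genes was 0.08, 0.10 and 0.10. At 10 FPKM or more, Tnf was found in 43 of the 71 cells with Nfkbia and in 3 of the 69 without.

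Markers of other cells were present in part of the libraries. At least 3 of 10 rod photoreceptor markers were found in 5 PBS, 6 low-dose and 10 high-dose cells, and the summed level reached 346, 4660 and 15004 FPKM. Without these cells the differences from PBS at the high dose were -2.28 for Nfkbia and -1.61 for Nfkbiz. Without the 3 cells high in S100a8 they were -1.90 and -1.83, and the low-dose difference of Nfkbia was -1.17. At least 3 of 8 neutrophil markers were found in 4, 6 and 6 cells and 3 of 10 border macrophage markers in 7, 6 and 3 cells. Without the cells of either kind the high-dose differences of Nfkbia and Nfkbiz were -2.16 and -2.27. At least 3 monocyte markers were found in 1, 1 and 1 cells, and 3 markers of Müller glia and astrocytes in 4, 6 and 4. The highest summed level of 8 endothelial markers was 173 FPKM and that of 8 T and NK cell markers 9.49 FPKM. Camp, Cd209f, Gfap, Cd3d, Trac and Trbc2 were at 0 in every kept cell.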

How the data were processed

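Single-cell libraries of 144 sorted cells were analysed from the deposited FPKM table. Lysis, cDNA synthesis and amplification took place in the tube of the sorted cell, followed by tagmentation, per the labels' protocols. The authors deposited FPKM values for 55364 genes with the gene lengths. The build was GRCm38.p6 (mm10), and featureCounts 1.6.1, STAR 2.7.2b, cutadapt 1.16, Trimmomatic 0.36 and Trim Galore 0.4.4 are named in the submitters' processing notes. Their order, settings and use of strand are not given in the sources used here. No molecular identifiers are named, so reads are not independent molecules.

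The 10 genes and the pathway lists were chosen with earlier results of these data known. Of the 144 cells, 140 with at least 1000 genes at 1 FPKM or more were kept. The reads per cell were taken from FPKM times gene length, with its most frequent value above 0 in a cell taken as 1 read. Thinning used these reads rounded to whole numbers. A median of 53.1% of values above 0 in a cell came out as whole reads within 0.01 read, so no count model was used. Levels were means of log2(FPKM + 1), with a pseudocount of 1, and differences were differences of these means, pooled and by plate. Differences of rarely detected genes are understated on this scale. The labels name no animal, so each group was 1 sample and no test was made. A difference was called lower or higher at 1 or more in size with the same sign on all 3 plates, among genes at 1 FPKM or more in at least 25% of the cells of any group.

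All 10 members were named. Of each other list, up to 2 measured genes in each direction with 1 sign on all plates were named, measured meaning 1 FPKM or more in at least 10% of kept cells. The 3 genes most like each frequent member were ranked by Spearman rho. Relb, Nfkb1 and Nfkbiz were not in the promoter table. Alternatives were the pseudocount, the log2 ratio of mean FPKM, an adjustment for detected genes by a linear model, the cell and gene filters, each plate left out, and cells with markers of other types left out. The readings at pseudocount 10, without the 3 cells high in S100a8, with values under 10 FPKM set to 0 and with an adjustment for immediate early genes, and all alternatives between the doses, were chosen after seeing the data. Target genes called lower beyond the named rule were listed after their values were seen. The differences of mean log2 levels and the reads per cell taken from FPKM were tested on simulated data. The rule for lower and higher, the correlations and the other calculations were not. Scripts ran under matplotlib 3.10.9, scipy 1.17.1, pandas 2.3.3, numpy 2.4.6 and Python 3.11.15.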

Additional observations from a re-analysis of the deposited data

How the results depend on the processing

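Of the differences of Nfkbia, Nfkbiz, Icam1 and Rela under the alternatives, 115 stayed within the SD over plates of the reported value and 41 did not, and none has a test. The sign was that of the reported value in 5 of 13 alternatives for Nfkbiz at the low dose, in 7 for Rela and 11 for Icam1 at the high dose, in 12 for Nfkbia at the low dose and between the doses, and in 13 for the other 7 differences. At the low dose against PBS, Nfkbia was at -0.40 as a log2 ratio of mean FPKM, -0.27 adjusted for detected genes and, with the opposite sign, 0.40 among cells with at least 2000 genes, where the cause was not tested. With that filter Rela was at 1.78, Nfkbiz at 1.19 and Icam1 at 1.59. Rela was at 1.41 with a pseudocount of 0.1, 0.52 with 10, 1.27 as a ratio of means and 1.30 adjusted for detected genes. At the high dose against PBS, Nfkbia was at -1.49 with a pseudocount of 10, -1.21 as a ratio of means, -0.58 adjusted for detected genes, -0.55 adjusted for immediate early genes and -1.39 with at least 2000 genes. Nfkbiz was at -2.39 with a pseudocount of 0.1, -0.98 with 10, -0.52 adjusted for detected genes, -0.54 adjusted for immediate early genes and -2.27 without cells with border macrophage or neutrophil markers. For Rela the values were 0.38 as a ratio of means, 0.50 adjusted for detected genes, 0.25 adjusted for immediate early genes and 0.42 with at least 2000 genes, and for Icam1 0.29 and 0.10 under the adjustments for detected and immediate early genes. Between the high and the low dose with a pseudocount of 10, Rela was at -0.55, Nfkbiz at -1.09 and Icam1 at -0.70, and as a ratio of means Icam1 was at -0.46. Adjusted for detected genes, Nfkbia was at -0.31, Nfkbiz at -1.23 and Icam1 at -0.76, and adjusted for immediate early genes they were at 0.28, -0.73 and -0.49. With at least 2000 genes they were at -1.79, -2.67 and -1.97, and without the cells with border macrophage or neutrophil markers Nfkbia was at -0.56 and Icam1 at -1.37. Over 13 alternatives each, the high-dose differences of Nfkbia and Nfkbiz from PBS were below 0 in 13 and ranged from -2.28 to -0.55 and from -2.39 to -0.52, and leaving out any plate kept both past 1 in size. The share of all genes called lower falls with a looser gene filter, since more rarely detected genes are counted, to 2.34% and 0.70% (low dose), 6.46% and 1.94% (high dose) and 2.68% and 0.80% (between doses) for genes in at least 10% of cells and for every gene above 0. Spearman rho of Nfkbia and Nfkbiz was 0.60 adjusted for detected genes and 0.62 within high-dose cells, that of Nfkbiz and Icam1 0.48 and 0.50, and that of Nfkbia and Icam1 0.28 within high-dose cells. At the median depth 1 FPKM is 2.60 reads (Nfkbia) to 19.5 reads (Nfkb1).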

Other observations

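Transcripts of the cell that stood apart on each plate were followed in the other wells. On plate 1 S100a8 was at 37099 FPKM in well A1 and at 4.74 to 77.7 FPKM (median 8.14) in the 7 other cells of column 1, while 9 of the 40 cells in other columns held any. On plate 2 the source well was D1 with 54673 FPKM, the column ranged from 5.32 to 169 FPKM (median 6.06) and 7 of 40 other cells held any. On plate 3 well H4 held 54950 FPKM, the cells of column 4 ranged from 0.653 to 15.7 FPKM (median 1.64) and 5 of 40 others held any. S100a9 was above 0 in 16 of 21 cells of the same columns and in 19 of 120 others. The 3 cells held 448, 416 and 2.30 FPKM of Nfkbia, and the low-dose cell also 106 FPKM of Nfkbiz and 27.1 FPKM of Icam1.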
